A study of Mus musculus with 12 samples.

Results

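Axon guidance ligands and receptors were examined in the hypothalamus of mouse pups at postnatal day 6 (P6). The members were the semaphorins, plexins, neuropilins, ephrins, Eph receptors, Slits, Robos, netrins and the netrin receptors Dcc and Unc5. They were taken by gene symbol from the deposited table of 43280 gene rows. The families were chosen with earlier results of these data known. The symbols matched 69 genes, all of which had at least 10 counts over the 12 libraries. Of these, 60 passed the filter on low counts and were tested with edgeR among 13104 genes. The study compared 6 control pups with 6 pups exposed to modified maternal separation (MMS), in which pups are kept apart from the dam for a short period on several days and are repeatedly turned onto their backs. All 12 pups were C57/Bl6 by their labels, which name no transgene or engineered allele, and male by the study's methods. Each litter held pups of both groups, the labels do not say which libraries are littermates, and every pup is treated here as independent. Coordinates below are those of GENCODE M21 on mm10, in which all 69 members were found. Tissue was taken directly after the last session, so recent handling and repeated exposure cannot be told apart.

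Growing axons are steered by secreted or membrane-bound ligands that attract or repel the growth cone through receptors on its surface. Semaphorins act through plexins, with neuropilins as co-receptors for the secreted class 3 semaphorins. Ephrins bind Eph receptor tyrosine kinases on touching cells, Slits repel through Robo receptors, and netrins attract through Dcc and repel through Unc5 receptors. After axons have reached their targets, many of the same genes serve synapse formation, blood vessel growth and glial migration. In the pup hypothalamus, where projections between nuclei are still being laid down, they are expressed by neurons, glia and vessels.

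Each library held between 3218777 and 6560620 counts, and the groups did not differ in depth beyond the spread between libraries (exact permutation test, two-sided, p = 0.173). Of 17 genes known to mark hypothalamic nuclei, 16 passed the count filter, and their summed level was 1073 to 2063 CPM (counts scaled to a common library size) in control and 1428 to 1926 CPM in MMS libraries. The summed level of 8 pituitary markers was at most 41.5 CPM. Of these markers 2 were at 0 in every library. Control 3 stood apart in Ttr, a marker of choroid plexus, at 1735 CPM against at most 35.5 CPM in the other libraries. MMS 2 and MMS 4 stood apart on the first principal component of all genes, at 57.8 and 46.3 where the other 10 libraries lay between -14.4 and -3.04. The summed level of 15 listed ependymal cilia markers, 14 of them in the table, was 104 to 207 CPM in controls. It was 32.2 CPM in MMS 2, 58.5 CPM in MMS 4 and 97.2 CPM in MMS 1, all below the controls, and 132 to 199.7 CPM in the other MMS libraries. Of its 11 tested genes, 10 had lower estimates in MMS. Their median log2 fold change was -0.77 with all libraries and -0.26 without MMS 2 and MMS 4. With all libraries, 2 of the 11 were lower in MMS at an unadjusted p under 0.05 in edgeR (4.40% of all genes). The summed level of 8 neuronal markers was 8130 to 9151 CPM in controls. It was lower than in any control in 4 of 6 MMS libraries. These were MMS 2 at 6812 CPM, MMS 4 at 6940 CPM, MMS 1 at 7870 CPM and MMS 3 at 7980 CPM. MMS 5 and MMS 6 held 8938 and 9089 CPM. Of the 8 genes, 5 had higher and 3 lower estimates in MMS, with a median log2 fold change of 0.03. At an unadjusted p under 0.05 in edgeR there was 1, lower in MMS (4.40% of all genes). Tubb3 was at 1280 and 1307 CPM in MMS 2 and MMS 4, against 3001 to 3461 CPM in controls. Map2 and Rbfox3 also lay below every control in both, whereas Snap25, Nefl and Stmn2 lay above every control in both. The summed level of 8 astrocyte markers was 1824 to 2232 CPM in controls and 2490 and 2499 CPM in MMS 2 and MMS 4. It was 2235 to 2247 CPM in MMS 1, MMS 3 and MMS 6, and 2157 CPM in MMS 5. Estimates were higher in MMS for 4 of these genes and lower for 4, with a median log2 fold change of -0.007. At an unadjusted p under 0.05 in edgeR there was 1, higher in MMS (4.68% of all genes). In both MMS 2 and MMS 4, Aldoc and Slc1a3 lay above every control and Gfap and S100b below every control. Values are also given without MMS 2 and MMS 4, which stood apart over all genes, and the part of these markers in the results was not tested. In bulk tissue, fewer cells of a type and less RNA per cell cannot be told apart.

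Together the 69 members summed to between 2857 and 3168 CPM in control and between 2947 and 3155 CPM in MMS libraries. The 35 ligands made up 1361.7 ± 70.9 CPM in control and 1349 ± 30.1 CPM in MMS pups, and the 34 receptors 1649 ± 58.5 and 1721 ± 103 CPM. Each library was primed at the poly(A) tail, so reads per molecule do not grow with transcript length, and levels of different genes are set side by side here as CPM without a division by length. The most abundant member was Efnb3, a membrane-spanning ephrin, with 350.2 ± 32.0 CPM in control and 337 ± 15.2 CPM in MMS pups (mean ± SD, n = 6 each). Next came the co-receptor Nrp2 at 178 ± 18.1 and 186 ± 21.2 CPM. Plxna1, Sema4a, Nrp1 and Plxnc1 followed, from a mean of 133 CPM over the 12 libraries for Plxna1 to 117 CPM for Plxnc1. The summed level in controls was 676 ± 22.02 CPM for the 20 semaphorins, 610.4 ± 26.1 CPM for the 9 plexins and 290.1 ± 23.3 CPM for the 2 neuropilins. It was 407 ± 40.9 CPM for ephrin-B and 158 ± 14.98 CPM for ephrin-A ligands, and 241 ± 33.1 and 235 ± 24.5 CPM for EphA and EphB receptors. Slits summed to 83.0 ± 8.33 CPM, Robos to 52.4 ± 7.91 CPM and netrins to 37.5 ± 3.57 CPM, while the netrin receptors reached 219.95 ± 11.3 CPM.

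**Figure D1:**
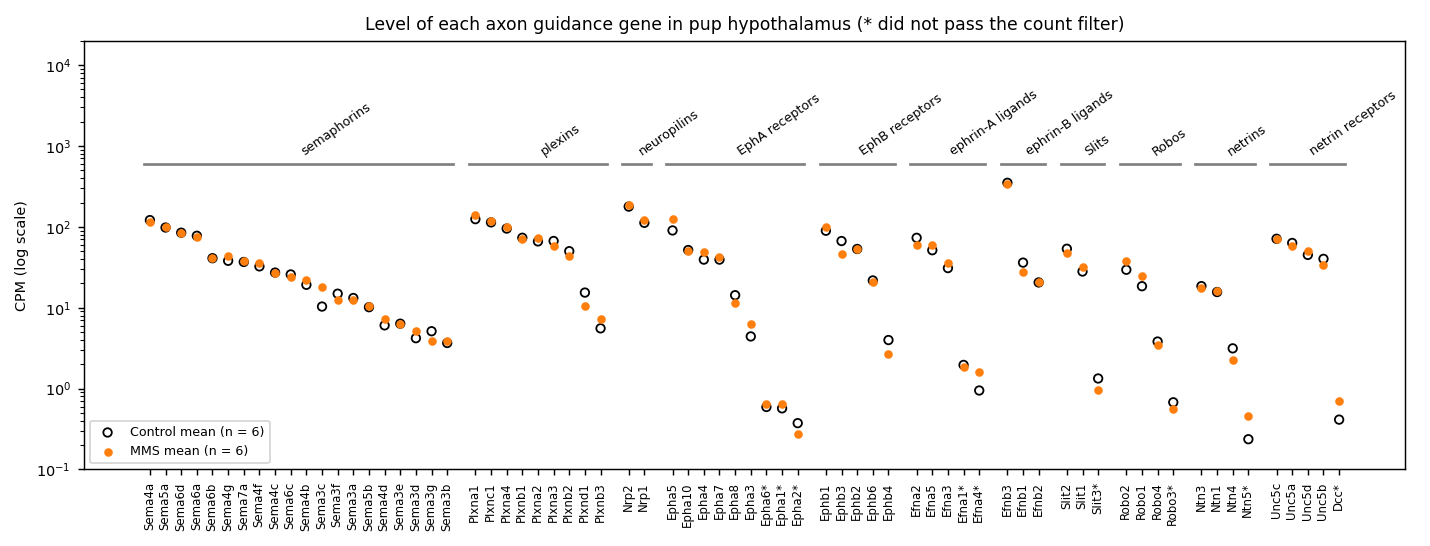
Mean level of each of the 69 axon guidance genes, in CPM on a log axis, grouped by family along the x axis, with open circles for 6 control and orange points for 6 MMS libraries. Members span from under 1 CPM (Dcc, Ntn5, Robo3 and several EphA receptors) to Efnb3 at 344 CPM over all libraries, and the control and MMS points of most genes nearly coincide.

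The comparison asked whether any of these genes differed between MMS and control pups. None of the 60 tested members passed an adjusted p of 0.05 in edgeR, as was so for 0% of all 13104 genes, and the smallest adjusted p among members was 0.543. Members at an unadjusted p under 0.05 numbered 3 (5%), where the share of all genes tested was 9.08%. Of these, Sema3c and Robo1 were higher in MMS (4.68% of all genes) and Ephb3 was lower (4.40%). Estimates were above 0 for 30 members and below 0 for 30, with a median log2 fold change of 0.0083 against 0.00091 over all genes. The median absolute log2 fold change was 0.15 for the members and 0.15 for all genes. In 0 members did the CPM of the groups not overlap, which was so for 0.389% of all genes. For 38 members the 95% interval of the change lay within 1.5-fold in either direction, and for 53 within 2-fold. The count of 3 was 8 without MMS 5 or MMS 6, where 13.6% and 11.8% of all genes were at that limit. It was 5 without Control 1, Control 2 or MMS 3 (7.55%, 8.37% and 9.73% of all genes), 2 without MMS 2 (5.27%) and 1 without both MMS 2 and MMS 4 (5.03%). No member passed the adjusted threshold in any of the 19 alternative fits, in which the smallest adjusted p of a member was 0.239.

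**Figure D2:**
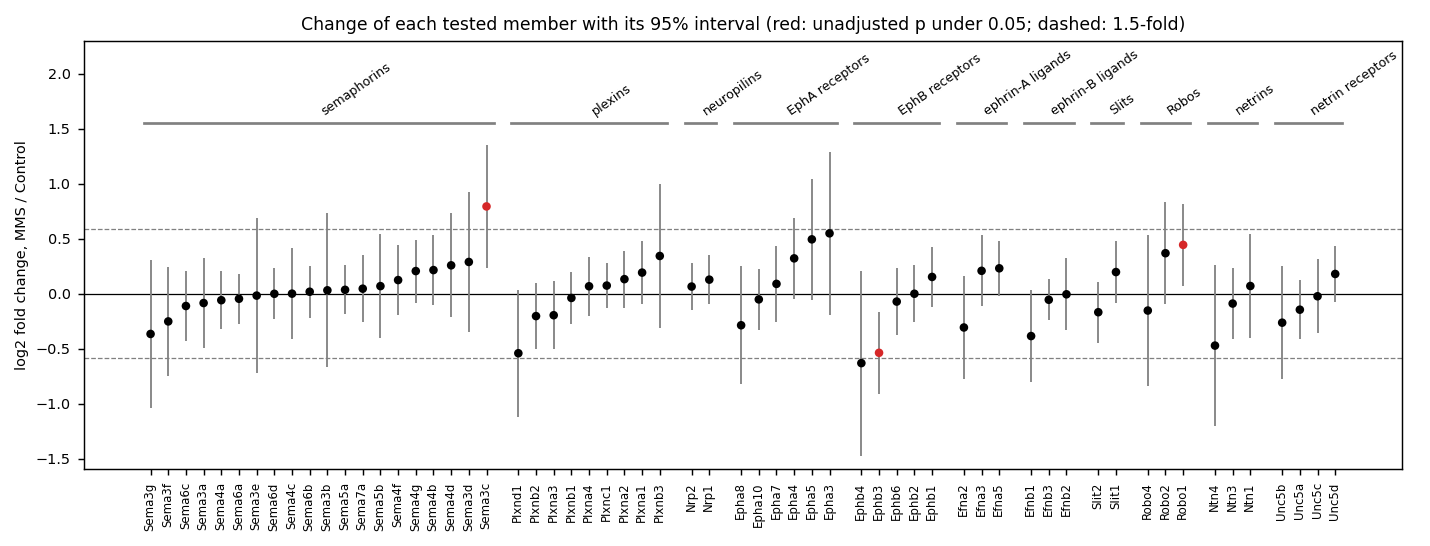
Log2 fold change of each of the 60 tested members (MMS relative to control, y axis) with its 95% interval from edgeR, ordered by family. Red points mark Sema3c, Robo1 and Ephb3, the 3 members at an unadjusted p under 0.05, and dashed lines mark a 1.5-fold change, which the intervals of 38 members do not reach.

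Among the semaphorins, 11 of 20 had higher and 9 had lower estimates in MMS, with a median log2 fold change of 0.02. Sema3c (chr5:17574281-17730268, plus strand), a secreted semaphorin that signals through neuropilins and plexins, had the largest absolute estimate of all members. Its lowest, median and highest levels were 8.01, 10.7 and 11.7 CPM in controls and 7.57, 14.8 and 30.7 CPM in MMS pups. MMS 2 (27.7 CPM) and MMS 4 (30.7 CPM) were the highest, MMS 1 (15.7 CPM) and MMS 6 (13.8 CPM) also lay above the controls, and MMS 3 was the lowest of the 12. The log2 fold change was 0.79 (SE 0.27, with an adjusted p of 0.543 in edgeR), and it was 0.57 without MMS 4 and 0.24 without both MMS 2 and MMS 4.

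The 95% intervals of the other 6 secreted semaphorins all held 0. Sema3a, a repellent for many axons, measured 13.2 ± 2.20 CPM in control and 12.5 ± 3.84 CPM in MMS pups (mean ± SD, n = 6 each). Sema3d, known for guiding both axons and vessels, followed the libraries of Sema3c, with 8.06 CPM in MMS 2 and 7.09 CPM in MMS 4 against at most 5.90 CPM elsewhere. Its log2 fold change was 0.29 (SE 0.31), or -0.10 without those libraries. For Sema3b, Sema3e, Sema3f and Sema3g the log2 fold changes were 0.03, -0.02, -0.25 and -0.37. Sema4a, a transmembrane class 4 semaphorin and the most abundant one, had a log2 fold change of -0.06 (SE 0.13). It measured between 105 and 132 CPM in controls. MMS values fell on both sides of that range, with 88.6 and 90.1 CPM in MMS 2 and MMS 4 and 135 and 155 CPM in MMS 5 and MMS 6. Without MMS 2 and MMS 4 its estimate was 0.10. The next most abundant semaphorins, Sema5a, Sema6d and Sema6a, had estimates of 0.03, -0.0019 and -0.05, and the widest of their 95% intervals, that of Sema6d, ran from -0.23 to 0.23. The remaining 9 semaphorins lay between -0.11 (Sema6c) and 0.26 (Sema4d).

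Of the 9 plexins, which bind semaphorins and act on small GTPases, 5 had higher and 4 lower estimates. Plxna1 (chr6:89316314-89362620, minus strand), a partner of the neuropilins, measured 101 to 146 CPM in controls with a median of 122 CPM, and 98.9 to 180.0 CPM in MMS pups with a median of 138 CPM. MMS 2, MMS 4 (179.7 CPM) and MMS 3 lay above all controls and MMS 6 below them. The log2 fold change was 0.19 (SE 0.14), or -0.01 without MMS 2 and MMS 4. Plxnd1 (chr6:115954811-115995005, minus strand), known for its role in vessel patterning and as a semaphorin receptor of some neurons, had the largest estimate among plexins. It measured 11.9 to 21.7 CPM in controls and 3.76 to 18.2 CPM in MMS pups, with medians of 13.8 and 9.64 CPM. MMS 2, MMS 3, MMS 4 and MMS 6 lay below all controls. The log2 fold change was -0.54 (SE 0.28, with an adjusted p of 0.556 in edgeR), and -0.25 without MMS 2 and MMS 4. Of the plexins not described further, Plxna3 and Plxnb2 were at -0.20, Plxnb1 at -0.04, Plxnc1 at 0.07, Plxna2 at 0.13 and the sparsely counted Plxnb3 at 0.34.

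Plxna4 showed a wider spread in MMS than in controls. In the 6 controls it held between 92.4 and 98.2 CPM, whereas MMS 2 and MMS 4 reached 119 and 140.1 CPM and the other 4 MMS libraries lay below all controls, at 77.5 to 91.1 CPM. The means were 95.2 ± 2.07 and 99.5 ± 24.5 CPM (mean ± SD, n = 6 each), and the log2 fold change was 0.07 (SE 0.13). Without MMS 2 and MMS 4 it was -0.17. Exons of Plxna4 overlap those of the antisense gene Plxna4os3. Such overlaps with another gene hold for 18 of the 69 members, 5 of them with a protein-coding gene (Epha1, Ephb4, Ntn3, Ntn5 and Unc5a), and how the counting treated strand is not given in the sources used here.

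Both neuropilins were abundant and precisely measured. Nrp1 (chr8:128358604-128503363, plus strand), the main co-receptor for Sema3a, measured 112 ± 8.69 CPM in control and 122 ± 16.9 CPM in MMS pups, with MMS 2, MMS 3 and MMS 4 above the whole control range. On the log2 scale it differed by 0.13 (SE 0.11), with a 95% interval of -0.09 to 0.35. Nrp2 (chr1:62703285-62818695, plus strand), which binds other class 3 semaphorins, had a log2 fold change of 0.06 (SE 0.10) and an interval of -0.15 to 0.27.

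In the Eph family, the EphA and EphB receptors had medians of 0.20 and -0.07 on the log2 scale, with 4 of 6 tested EphA receptors higher and 4 of 5 EphB receptors lower in MMS. The difference between the subfamilies was not tested. Ephb3 (chr16:21204755-21223305, plus strand), a receptor for the membrane-spanning ephrins, had the smallest p of all members. Its lowest, median and highest levels were 56.2, 65.8 and 77.9 CPM in controls and 29.1, 46.5 and 71.5 CPM in MMS pups. In MMS, 5 of 6 libraries lay below every control, and MMS 6 lay among them. The log2 fold change was -0.54 (95% interval -0.91 to -0.16; SE 0.18; adjusted p = 0.543 in edgeR). Leaving out any 1 library gave estimates from -0.70 (without MMS 6) to -0.42 (without MMS 4). Without both MMS 2 and MMS 4, which held its 2 lowest values, the estimate was -0.30, and Ephb3 was then the only member at an unadjusted p under 0.05 (edgeR adjusted p = 0.961).

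The other EphB receptors gave estimates closer to 0 or rested on few reads. Ephb1 (chr9:101922128-102354693, minus strand), the most abundant of them, measured 70.0 to 113 CPM in controls and 82.4 to 131 CPM in MMS pups. The estimate was 0.15 on the log2 scale (SE 0.13). Ephb2 measured 53.2 ± 7.53 and 53.3 ± 7.88 CPM in the groups (mean ± SD, n = 6 each), with an interval of -0.26 to 0.26. Ephb6, which lacks kinase activity, was at -0.07 (SE 0.15). Ephb4 (chr5:137350109-137378669, plus strand), a receptor of venous endothelium whose exons overlap those of Zan on the other strand, had 187 counts in all. It measured 1.90 to 6.02 CPM in controls and 0.71 to 5.75 CPM in MMS pups, with a log2 fold change of -0.63 (SE 0.41, with an adjusted p of 0.618 in edgeR), or -0.19 without MMS 2 and MMS 4.

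Among the EphA receptors, Epha5 (chr5:84054761-84417382, minus strand), which guides topographic projections in the forebrain, was the most abundant. Its lowest, median and highest levels were 67.9, 91.8 and 113 CPM in controls and 68.7, 103 and 219 CPM in MMS pups. Only MMS 2 (219 CPM) and MMS 4 (175 CPM) lay above the controls. This gave a log2 fold change of 0.49 (SE 0.26, with an adjusted p of 0.564 in edgeR) with all libraries and 0.03 without those 2. Epha4, a receptor for both ephrin classes, followed the same libraries, at 73.1 CPM in MMS 2 and 59.95 CPM in MMS 4 against at most 49.7 CPM elsewhere. The estimate was a log2 fold change of 0.32 (SE 0.18), or 0.03 without them.

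Epha3 (chr16:63543534-63864175, minus strand) had 289 counts in all and a wide range in controls. Control 1 and Control 2 had 9.90 and 6.25 CPM, while the other controls had 1.38 to 3.19 CPM. All 6 MMS values (4.24 to 7.84 CPM) lay inside the control range, and the log2 fold change was 0.55 (SE 0.36). It was 0.96 without Control 1. Epha7, Epha8 and Epha10 were at 0.09, -0.29 and -0.05, each with an interval that held 0.

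Of the ephrins, Efnb3 (chr11:69554092-69560205, minus strand), known as a midline barrier to corticospinal axons, had the smallest standard error of all members. Its log2 fold change was -0.06 (SE 0.09), with an interval of -0.24 to 0.13. Efnb1 (chrX:99136130-99148991, plus strand), a ligand of the EphB receptors, measured 27.1 to 44.8 CPM in controls and 12.6 to 36.1 CPM in MMS pups, with medians of 36.6 and 30.6 CPM. MMS 2 (12.6 CPM) and MMS 4 (20.8 CPM) were the 2 values below the controls. This gave a log2 fold change of -0.39 (SE 0.20, with an adjusted p of 0.564 in edgeR), or -0.12 without both. Efnb2, an ephrin of arterial endothelium and of neurons, measured 20.5 ± 4.13 and 20.5 ± 2.52 CPM in the groups (mean ± SD, n = 6 each).

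Efna2 and Efna5, GPI-anchored ligands of the EphA receptors, had estimates of opposite sign, and neither passed the test. Efna2 (chr10:80179482-80190010, plus strand) measured 54.6 to 88.9 CPM in controls and 32.0 to 80.8 CPM in MMS pups. Here too MMS 2 and MMS 4 were the 2 libraries below the controls, at 32.0 and 34.6 CPM, and the log2 fold change was -0.31 (SE 0.22) with them and -0.01 without them. Efna5 measured 51.4 ± 7.49 CPM in control and 60.4 ± 6.55 CPM in MMS pups (mean ± SD, n = 6 each), with a log2 fold change of 0.23 (SE 0.12, with an adjusted p of 0.563 in edgeR). Its estimate depended less on those libraries, and was 0.18 without them. Efna3, another ligand of this class, was at 0.21 (SE 0.16), and at 0.04 without them.

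Slits and their Robo receptors were detected at moderate levels. Robo1 (chr16:72308306-73046095, plus strand), which mediates Slit repulsion at the midline, had lowest, median and highest levels of 14.7, 19.1 and 20.7 CPM in controls and 16.7, 24.5 and 36.3 CPM in MMS pups. MMS 2, MMS 4, MMS 5 and MMS 6 lay above all controls. Robo1 had a log2 fold change of 0.44 (95% interval 0.07 to 0.81; SE 0.18; adjusted p = 0.543 in edgeR), or 0.22 without MMS 2 and MMS 4. Robo2 (chr16:73891839-74411825, minus strand), its neighbour on the same chromosome and a receptor for the same ligands, measured 21.3 to 37.8 CPM in controls and 21.6 to 57.8 CPM in MMS pups. Only MMS 2 (57.8 CPM) and MMS 4 (54.6 CPM) exceeded the controls, and the log2 fold change was 0.37 (SE 0.22) with them and -0.04 without them. Robo4, which is specific to endothelium, measured 3.82 ± 1.43 and 3.42 ± 1.38 CPM (mean ± SD, n = 6 each).

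The Slits, secreted ligands of the Robo receptors, had estimates of opposite sign. Slit1 (chr19:41600257-41743665, minus strand) measured 23.4 to 33.5 CPM in controls and 27.6 to 37.9 CPM in MMS pups, with a log2 fold change of 0.20 (SE 0.14). Slit2 (chr5:47983138-48307733, plus strand) measured 44.0 to 65.7 CPM in controls and 33.3 to 54.7 CPM in MMS pups, with a log2 fold change of -0.17 (SE 0.13). For both, the libraries outside the control range were MMS 2 and MMS 4, above it for Slit1 and below it for Slit2.

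Netrins were the family with the lowest summed level. Ntn1, the classic secreted attractant, measured 15.6 ± 3.72 CPM in control and 16.2 ± 6.74 CPM in MMS pups (mean ± SD, n = 6 each), with the highest value in MMS 4 (29.4 CPM). Its log2 fold change was 0.07 (SE 0.23), and -0.26 without MMS 2 and MMS 4. Ntn3 (chr17:24203848-24209531, minus strand) measured 18.5 ± 2.76 and 17.4 ± 2.67 CPM, with a log2 fold change of -0.09 (SE 0.16). Its exons overlap Tbc1d24 on the same strand, so reads from their shared bases could have been counted for either gene. Ntn4 (chr10:93640681-93747207, plus strand), a netrin of vessel walls, had 155 counts and a log2 fold change of -0.47 (SE 0.35), with 1.36 to 4.19 CPM in controls and 1.07 to 3.90 CPM in MMS pups.

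The repulsive receptors of the Unc5 group were well covered, each with at least 2011 counts over the 12 libraries. Unc5c (chr3:141465216-141834924, plus strand) measured 62.2 to 80.2 CPM in controls. In MMS pups it was 49.7 and 42.6 CPM in MMS 2 and MMS 4, 101 CPM in MMS 3 and 69.5 to 79.5 CPM in the rest. For Unc5c the log2 fold change was -0.02 (SE 0.16), and 0.21 without MMS 2 and MMS 4. Unc5b (chr10:60762593-60831581, minus strand), a netrin receptor of neurons and of endothelial tip cells, measured 27.1 to 57.1 CPM in controls and 14.8 to 47.8 CPM in MMS pups. Its log2 fold change was -0.26 (SE 0.24), or 0.02 without MMS 2 and MMS 4, which again were the libraries below all controls. Unc5a and Unc5d gave -0.15 (SE 0.13) and 0.18 (SE 0.12).

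**Figure D3:**
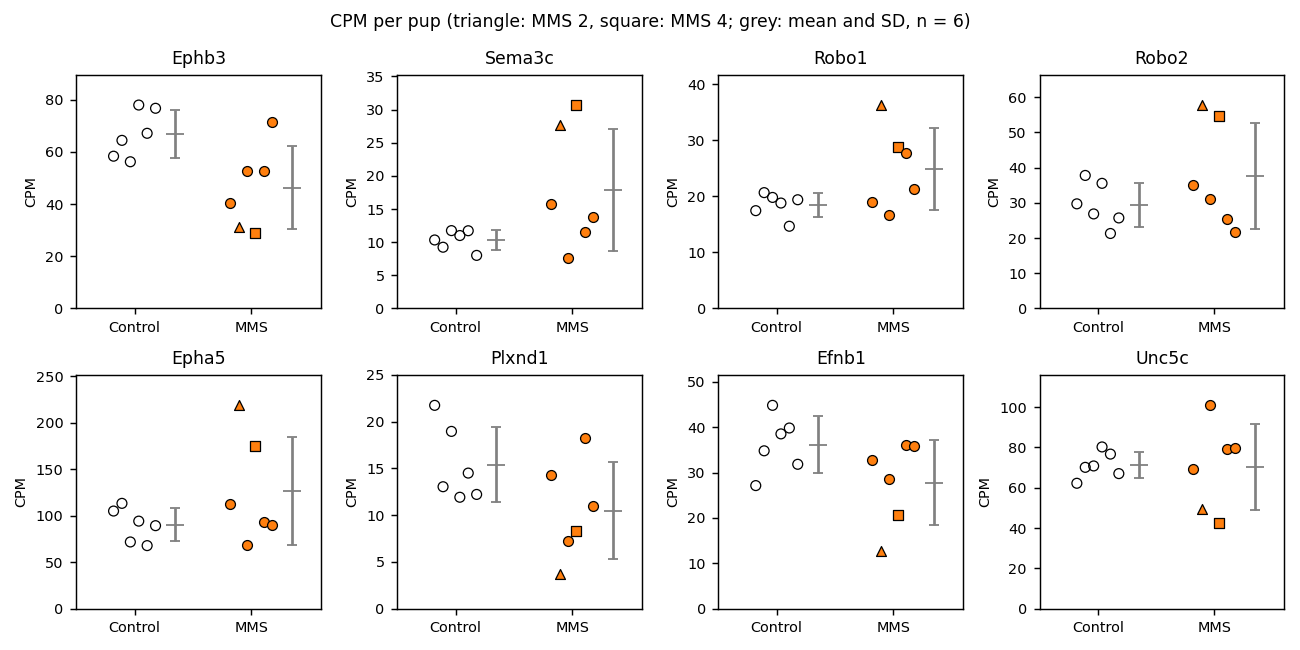
CPM of 8 members in each pup (y axes from 0), with open symbols for 6 control and orange symbols for 6 MMS pups, and grey bars for the mean and SD. MMS 2 (triangles) and MMS 4 (squares) are the 2 highest MMS values of Sema3c, Robo1, Robo2 and Epha5 and the 2 lowest of Ephb3, Efnb1 and Unc5c. In Ephb3, 5 of 6 MMS pups lie below every control.

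Among the members named above, Plxnd1, Ephb4, Robo4, Unc5b, Ntn4, Efnb2, Nrp1 and Sema3d are also known from blood vessels, a grouping made after their values had been seen. Their estimates ran from -0.63 (Ephb4) to 0.29 (Sema3d). The grouping is not a complete list of members with a role in vessels. Sema3c, Robo1, Nrp2, Sema3e and Slit2 were left outside it, with estimates of 0.79, 0.44, 0.06, -0.02 and -0.17. Of 12 markers of endothelium and pericytes, 1 was at an unadjusted p under 0.05 (lower), where the share of all genes was 4.40%. All 12 were tested, 9 had estimates below 0 and 3 above, and none was at 0 in every library. Their summed level was 303 to 346 CPM in controls and 245 to 358 CPM in MMS pups, with 4 MMS libraries below and 1 above all controls, and a median log2 fold change of -0.07. The part of these markers in the estimates of these members was not tested.

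The remaining 9 members did not pass the count filter. Over all 12 libraries Efna1 had 107 counts, Efna4 had 72, Slit3 had 65, Epha6 and Robo3 had 34 each, Dcc and Epha1 had 31 each, Ntn5 had 18 and Epha2 had 17. Dcc, the attractive netrin receptor, gave between 0 and 5 counts per library and was at 0 in Control 4, Control 6 and MMS 3. Its mean was 0.41 CPM in control and 0.70 CPM in MMS pups. With so few counts, a difference in these 9 genes could be missed. A low count at the 3' end also says nothing of transcripts that end outside the annotated gene. Slit3 had 1 to 10 counts in MMS and 3 to 12 in control libraries. Without a filter all 69 members could be fitted and 0 passed the adjusted threshold, with 5 at an unadjusted p under 0.05, all of which were among the 60.

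Spread between pups was wider in MMS than in controls for 44 of the 60 members (73.3%), by coefficient of variation, and for 73.1% of all genes. The median coefficient was 16.8% in control and 22.2% in MMS pups for the members, and 16.9% over the 4 MMS pups other than MMS 2 and MMS 4. MMS 2 was the highest or lowest of the 12 libraries in 28 members (46.7%), 16 times highest and 12 times lowest, where the share over all genes was 32.2%. MMS 4 was so in 12 members (20%, against 26.5% of all genes). MMS 2 lay outside the range of the controls in 36 of 60 members (60%, against 56.7% of all genes) and MMS 4 in 31 (51.7%, against 54.4%). The other MMS libraries did so in 12 to 20 members (20% to 33.3%), where the shares of all genes were 28.5% to 40.8%.

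**Figure D4:**
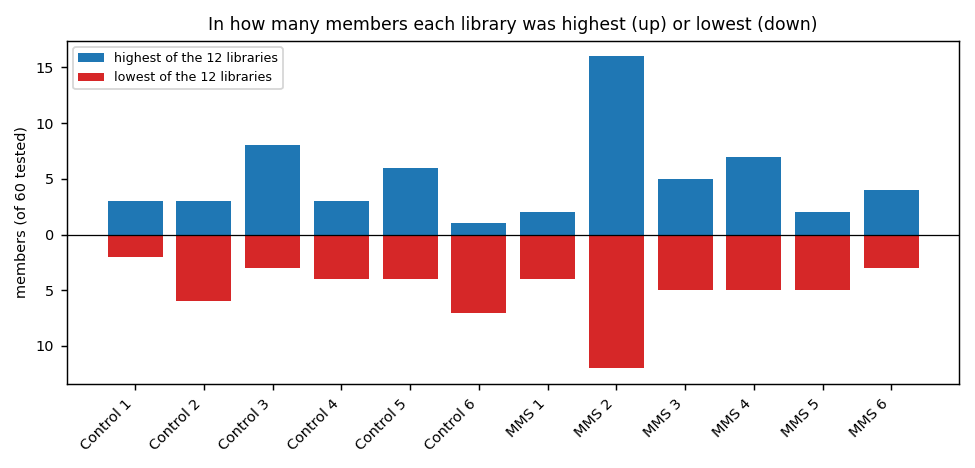
Number of the 60 tested members in which each library had the highest (blue, upward) or the lowest (red, downward) CPM of all 12. MMS 2 was at an extreme in 28 members, the most of any library, followed by MMS 4 with 12 and Control 3 with 11.

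The median absolute log2 fold change of the members was 0.099 without MMS 2 and MMS 4, and 0.12 over all genes in that fit, with 6 control and 4 MMS pups. With all libraries these medians were 0.15 and 0.15. Of the 60 estimates 34 came closer to 0, and 15 changed sign, among them Plxna1, Plxna3, Plxna4, Robo2, Unc5a, Unc5b, Unc5c, Sema4a and Ntn1. The shares of all genes that did so are not given here, so these counts do not set the members apart. The members then ranged from -0.59 (Ntn4) to 0.44 (Epha3).

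**Figure D5:**
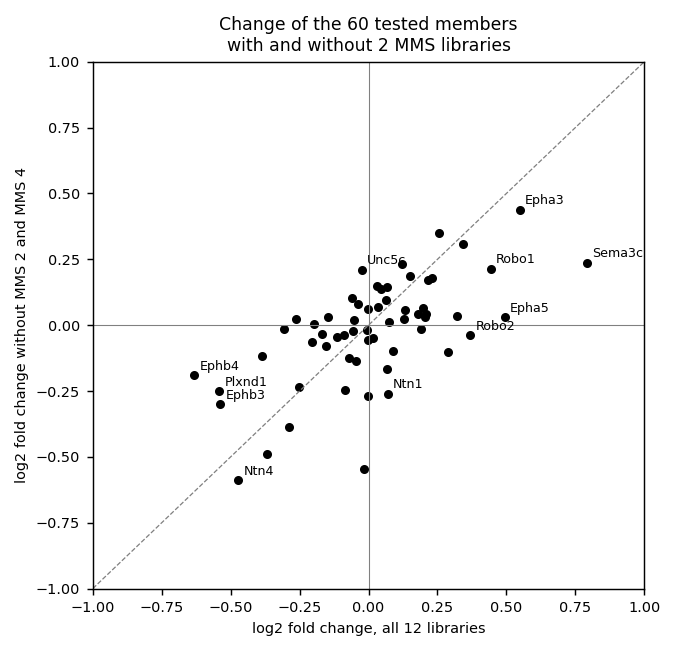
Log2 fold change of the 60 tested members with all 12 libraries (x axis) and without MMS 2 and MMS 4 (y axis), with the line of equal values dashed. Sema3c, Robo1, Robo2 and Epha5 on the right, and Ephb3, Ephb4 and Plxnd1 on the left, lie closer to 0 on the y axis than on the x axis, while Epha3 (0.44 on the y axis) and Ntn4 (-0.59) lie nearer the dashed line.

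Beyond the 69 members, 78 other genes of the guidance pathway were listed. They were cytoplasmic effectors, co-receptors and adhesion partners, with some further ligands and receptors such as Rgma and Neo1. Of the 78 listed genes, 76 were tested. None passed the adjusted threshold in edgeR. Those at an unadjusted p under 0.05 numbered 7 of the 76 tested, where the share of all genes was 9.08%. Of these, 6 were higher in MMS (Evl, Srgap2, Fyn, Trio, Cfl1 and Limk1), as were 4.68% of all genes. The other 1 was lower (Vasp), as were 4.40% of all genes. The list median was 0.04 on the log2 scale, with 46 estimates above and 30 below 0.

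Vasp and Evl, related proteins that promote actin filament growth at the leading edge, had estimates of opposite sign. Vasp measured 43.2 ± 4.53 CPM in control and 28.5 ± 5.61 CPM in MMS pups (mean ± SD, n = 6 each), a log2 fold change of -0.59 (SE 0.14, with an adjusted p of 0.375 in edgeR), and -0.52 without MMS 2 and MMS 4. Evl measured 184 ± 12.3 and 261 ± 78.5 CPM, a log2 fold change of 0.50 (SE 0.15, with an adjusted p of 0.518 in edgeR), and 0.20 without those libraries. Srgap2, a GTPase-activating protein that acts downstream of Robo1, had a log2 fold change of 0.27 (SE 0.10), and Fyn, a kinase of the semaphorin and netrin pathways, of 0.31 (SE 0.13). Both had an edgeR adjusted p of 0.543. Their estimates were 0.21 and 0.07 without MMS 2 and MMS 4. After Vasp, the smallest p among genes with lower estimates belonged to Rhoa, a GTPase through which several repellents act, and Srgap1, a relative of Srgap2. Their log2 fold changes were -0.42 (SE 0.23) and -0.17 (SE 0.12), and -0.11 and -0.08 without MMS 2 and MMS 4. The count of 7 was 3 without MMS 2 or Control 5 (5.27% and 7.76% of all genes). It was 4 without MMS 4, Control 3 or Control 4 (5.35%, 6.81% and 7.48%), and 11 without MMS 5 (13.6%). Without both MMS 2 and MMS 4 it was 6 (5.03% of all genes), 5 higher and 1 lower in MMS.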

How the data were processed

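Hypothalamic RNA from 12 pups was made into QuantSeq 3' libraries, sequenced on an Ion Proton and aligned to mm10 in Torrent Suite by the authors, who deposited raw read counts per gene. Not given in the sources used here were the counting tool, annotation and strand setting. Samples were grouped by the labels. Members and gene lists were chosen with earlier results of these data known. No pair of libraries within a group agreed within sampling noise. Genes passing filterByExpr of edgeR 4.0.16 (minimum count 10, minimum total 15) were tested in R 4.3.3 with TMM factors and the quasi-likelihood test, MMS against Control, with Benjamini-Hochberg adjustment over 13104 genes. CPM used TMM library sizes. Named genes were members at an unadjusted p under 0.05, or with the highest mean or largest absolute change in their family. Members without overlap between groups also qualified. Of the other listed pathway genes, the 3 with the smallest p in each direction were named. Others were named after their values were seen. Scripts were tested on simulated data. Alternatives were DESeq2 1.42.0, its size factors in edgeR, limma-voom (limma 3.58.1), no filter, a mean of at least 20 counts, each library left out, and a replicate block. The fit without MMS 2 and MMS 4 was planned with earlier results in view. Intervals are 95%.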

Additional observations from a re-analysis of the deposited data

Results flagged for a closer look

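Nrp2 in Control 5 stood apart from its group. It measured 212 CPM, whereas the other 5 control pups lay between 160 and 179 CPM, a gap that took up more of the group's whole range than Dixon's 95% critical value for 6 samples allows. Chance gives about 1 such library in 20 groups. Of the 46 sets of 6 values examined, 1 was so marked and 2.3 were expected by chance.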

How the results depend on the processing

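No member passed an adjusted p of 0.05 under any of the 19 alternatives. The count of members at an unadjusted p under 0.05, 3 in the reported fit, was 4 with DESeq2 (9.87% of all genes), 7 with limma-voom (9.97%), 5 without a count filter (8.66%), 6 with the replicate number as a block (9.34%), 1 without MMS 2 and MMS 4 (5.03%), and 2 to 8 with 1 library left out at a time (5.27% to 13.6%). The labels do not say whether the replicate numbers pair pups. Deviations of libraries with the same number correlated between -0.048 and 0.12, and 2 of 6 controls correlated best with their own number. With no litter label to check them against, these values cannot decide whether pups with the same number are littermates. With that block the 6 members were Efnb1, Epha5, Ephb3, Plxnd1, Robo1 and Sema3c. Listed pathway genes at that limit numbered 7 in the reported fit and 6 without MMS 2 and MMS 4. With 1 library left out they numbered 3 to 11. Without MMS 2 and MMS 4 15 of the 60 estimates changed sign, a count given without its share over all genes. Among the 22 members chosen by the naming rule these were Plxna1 (-0.0128), Robo2 (-0.0381), Sema4a (0.103), Unc5b (0.0224) and Unc5c (0.210), and the other 147 of 152 values of these 22 members, over this setting and those that change the method, kept their sign. With 1 library left out, Sema4a ran from -0.16 to 0.014 and Unc5c from -0.15 to 0.096, and 258 of 264 values of the 22 members kept their sign. The cause was not tested. Standard errors of 0.090 to 0.41 on the log2 scale limit what these 12 libraries can show, most of all for members with few counts.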

Other observations

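The remaining marker lists bear on which cells the dissections held. Of 10 oligodendrocyte lineage markers tested, 8 had higher and 2 lower estimates in MMS, 2 of the former at an unadjusted p under 0.05, with a median log2 fold change of 0.20 and summed levels of 846 to 1215 CPM in control and 943 to 1271 CPM in MMS pups. Of 10 microglial markers, 7 had higher and 3 lower estimates, 1 of the latter at an unadjusted p under 0.05, with summed levels of 217 to 277 CPM and 210.2 to 279 CPM. Of 7 tested meningeal and fibroblast markers, 5 had lower estimates, 1 of them at that limit, with a median of -0.29 and summed levels of 224 to 446 CPM in control and 98.5 to 508 CPM in MMS pups. Markers of neighbouring thalamus (8 tested, median 0.06) and telencephalon (6 tested, median -0.02) had summed levels of 1383 to 2146 and 91.8 to 119 CPM in controls, and 1372 to 2204 and 80.0 to 132 CPM in MMS pups. All 4 tested choroid plexus markers, of 8 listed, had lower estimates in MMS, 1 of them at an unadjusted p under 0.05. Their median log2 fold change was -0.16, and -0.27 without MMS 2 and MMS 4. The 8 summed to 1808 CPM in Control 3, 25.3 to 54.3 CPM in the other controls and 21.6 to 36.5 CPM in MMS pups. In edgeR, no gene of these lists passed an adjusted p of 0.05. Of all genes tested, 4.68% were at an unadjusted p under 0.05 with higher and 4.40% with lower estimates in MMS.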
